A study of Drosophila melanogaster with 2 samples.

Results

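The ecdysone receptor and 9 genes of its response were examined for binding of the homeodomain protein Unc-4 in the fly embryo. The genes were EcR, usp, Eip74EF, Eip75B, Eip78C, Hr3, Hr4, ftz-f1, br and Eip93F, which are 10 of the 13968 coding genes on the nuclear chromosomes. They were listed as members of the pathway, with earlier results of these data known, and EcR was picked for its many summits. Its number of summits, and every total that holds it, is therefore given as a description. The data came from chromatin immunoprecipitation sequencing (ChIP-seq) of whole Drosophila melanogaster embryos of a strain carrying an insertion that encodes an unc-4-eGFP fusion, aged 6 to 18 h by the source name. There was 1 group with 2 biological replicates. The immunoprecipitation used an antibody against GFP, whereas the antibody label names unc-4. Sonicated chromatin had a labelled size of 200 to 800 bp, and sex was not collected. No untreated or input group was analysed here, and whole embryos mix every tissue, so binding in few cells and weak binding in many cannot be told apart.

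Ecdysone is the steroid hormone that times moulting and metamorphosis in insects, and a pulse of it also passes through the embryo. Its receptor is a pair of nuclear receptors, EcR, which binds the hormone, and Ultraspiracle (usp), a relative of the vertebrate retinoid X receptors. The loaded receptor switches on early genes such as Eip74EF, Eip75B and br, whose products act on the late genes. Hr3, Hr4 and ftz-f1 pass the signal from one pulse of hormone to the next, and Eip93F acts late in development. Most of these genes have several promoters far apart, each giving its own isoforms.

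Summits at the 10 genes fell into 3 kinds of place: at a start of the gene itself, at the start of a neighbouring or nested gene, and in introns or a 3′ UTR. Sequences under some summits of the first 2 kinds are shown. The neighbours were picked from those with the short element TATCGA, to show it. Not shown are PIG-K and Ars2, which also had it, and CG3857, Mur2B, CG3740, east and Idh3b, whose pooled summits lacked it. Further own starts that lacked it, such as those of usp and Eip75B, are not shown either. The sequences shown are read 5′ to 3′ on the strand of the gene at whose start they lie. They lie within 50 bp of the summit and outside every annotated exon. Their source is RefSeq Release 6 plus ISO1 MT, which shares coordinates with dm6. Capitals mark TATCGA or its reverse complement TCGATA, which overlap in TATCGATA, the site of the promoter factor DREF. The first 4 lie at starts of the genes examined, at chrX:2042360-2042460 (usp, minus strand), chr3L:21240179-21240279 (Eip78C, plus), chrX:1941824-1941924 (Hr4, plus) and chr3L:18801503-18801603 (ftz-f1, minus).
usp, start 1: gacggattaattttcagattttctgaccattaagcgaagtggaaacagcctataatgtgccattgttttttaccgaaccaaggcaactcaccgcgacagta
Eip78C, start 3: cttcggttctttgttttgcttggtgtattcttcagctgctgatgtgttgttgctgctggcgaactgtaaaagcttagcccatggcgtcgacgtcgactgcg
Hr4, start 1: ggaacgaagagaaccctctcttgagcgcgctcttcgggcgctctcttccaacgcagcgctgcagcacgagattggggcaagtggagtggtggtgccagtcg
ftz-f1, start 1: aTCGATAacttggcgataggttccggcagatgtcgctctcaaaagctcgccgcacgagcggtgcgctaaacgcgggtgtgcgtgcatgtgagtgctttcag
The other 3 lie at starts of neighbours, at chr3L:17557789-17557886 (CycT beside Eip74EF, minus strand), chr3L:18748598-18748686 (Atg3 beside ftz-f1, plus) and chrX:1664993-1665051 (dor beside br, plus).
CycT: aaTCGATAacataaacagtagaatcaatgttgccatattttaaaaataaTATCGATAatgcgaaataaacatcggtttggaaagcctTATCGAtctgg
Atg3: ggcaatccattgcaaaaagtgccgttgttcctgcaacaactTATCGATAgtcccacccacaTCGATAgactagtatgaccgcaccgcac
dor: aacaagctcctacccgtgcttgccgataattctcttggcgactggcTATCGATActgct

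Peaks were compared in 4 lists, each of which the authors had cut at a highest global irreproducible discovery rate (IDR) of 0.0100; the IDR measures how well a peak's rank repeats. The pooled list held 4899 peaks on nuclear chromosomes, the conservative list of both replicates 4474, the list of replicate 1 3457 and that of replicate 2 2960. The authors' signal per peak has no stated scale and is compared only within a list. Pooled peaks had a median of 107.2 and conservative peaks 117.4, while it was 115.9 in replicate 1 and 63.4 in replicate 2. The pooled and conservative lists are not separate measurements, since all 26 summits that both held at these genes had the same signal in both. Peak lists hold no reads, so depth is unknown.

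In the pooled list 37 summits lay in the 10 genes or within 5 kb of them, and every gene had at least 1. Among all coding genes 57.1% had one, and among the 670 coding genes of 30 kb or more, to which 9 of the 10 belong, 56.1% did. The conservative list put 33 summits at 10 of the genes (background 54.8% of coding genes), replicate 1 26 at 10 genes (background 49.5%) and replicate 2 18 at 9 genes (background 46.1%). Hr3 was the gene without a summit in replicate 2. Summits within 1 kb of a start of the gene itself were found at 6 of 10 genes in the pooled list, a share of 60.0% (95% Wilson interval 31.3 to 83.2), beside 35.9% of all coding genes and 36.0% of those of 30 kb or more. That interval includes both background shares. EcR, picked for its many summits, is among the 6 genes of the pooled list, and the share of genes without it was not computed. The conservative list also gave 6 of 10 genes (background 33.7%), replicate 1 6 (background 29.2%) and replicate 2 4 (background 25.5%). Wilson intervals here cover counting error only, and peaks of 1 gene are not independent of each other.

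**Figure D1:**
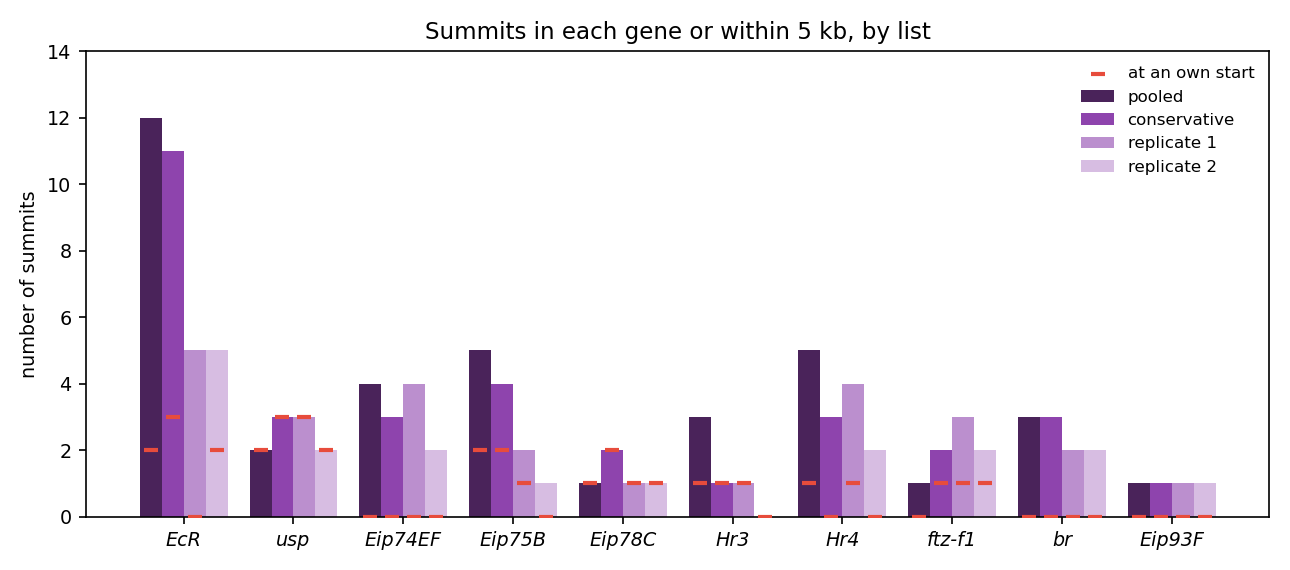
Number of summits (y axis) in each gene or within 5 kb of it (x axis) in the pooled, conservative, replicate 1 and replicate 2 lists, with red dashes for the summits within 1 kb of a start of that gene. EcR has 12, 11, 5 and 5, and no other gene has more than 5 in a list; Eip74EF, br and Eip93F have no dash above 0 in a list.

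EcR (FBgn0000546, chr2R:6087873-6169087, minus strand) had 12 pooled summits, the number it was chosen for, and the next coding genes by this count were psq with 11, SNF4Agamma and velo with 10 each and Ptp61F and nocte with 9 each. The 12 formed 9 separate regions, since 3 pairs of peaks overlapped. Only 2 summits lay at an EcR start. The first, of signal 72.8, was 11 bp downstream of start 3, which gives transcripts EcR-RB and EcR-RC, and start 4 lies beside it. The second, of signal 56.2, was 105 bp downstream of start 2, of EcR-RD and EcR-RE. Both were below the list's median. Replicate 2 held both, at signals of 40.3 and 33.7, and neither passed in replicate 1, with IDR values of 0.0205 and 0.143 in its ranked list. The outermost start, of EcR-RA, had no summit within 1 kb in any of the 4 lists.

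A further group of 4 summits at EcR was at transfer RNA genes. The window of EcR held 16 tRNA genes, 13 of them inside EcR, and each of these summits had one as its nearest start. They lay 105 bp from tRNA:Lys-CTT-1-1 with a signal of 154.8, 51 bp from tRNA:Asn-GTT-1-1 with 77.3, 64 bp from tRNA:Asn-GTT-1-3 with 84.3, and 26 bp from tRNA:Lys-CTT-1-5 with 174.7, the last one 2455 bp upstream of EcR. In the pooled list all 4 had a higher signal than both summits at EcR starts. In replicate 2 the start 3 peak, of 40.3, exceeded the 38.5 at tRNA:Asn-GTT-1-3 but not the 62.8 at tRNA:Lys-CTT-1-1. The summits at tRNA:Asn-GTT-1-1 and tRNA:Lys-CTT-1-5 were not in that list. Of the 16 tRNA genes, 7 (43.8%) had a pooled summit within 500 bp of their start, beside 113 of all 290 nuclear tRNA genes (39.0%). These 7 shared the 4 summits above, which are among those that EcR was picked for. The share at EcR is therefore a description, and no conclusion is drawn from its place beside that of all tRNA genes. The 8 tRNA genes between 2936 and 7552 bp from its 5′ end had none.

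The peak of highest signal at EcR, 202.6, was in an intron, 5775 bp downstream of start 2 and 1322 bp from tRNA:Asn-GTT-1-1, at chr2R:6151096-6151611. It was 1 of 2 EcR regions in both replicate lists, with 132.3 in replicate 1 and 67.8 in replicate 2, and a smaller peak of 20.0 overlapped it. The other was at tRNA:Lys-CTT-1-1, with 89.9 in replicate 1 and 62.8 in replicate 2. A pair of peaks of signal 79.0 and 3.14 lay in the 3′ UTR and in neither replicate list. A last pair, of 91.0 and 7.30, lay beyond the 3′ end at the start of Ars2, a factor of RNA processing, and was in the replicate 1 list.

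**Figure D2:**
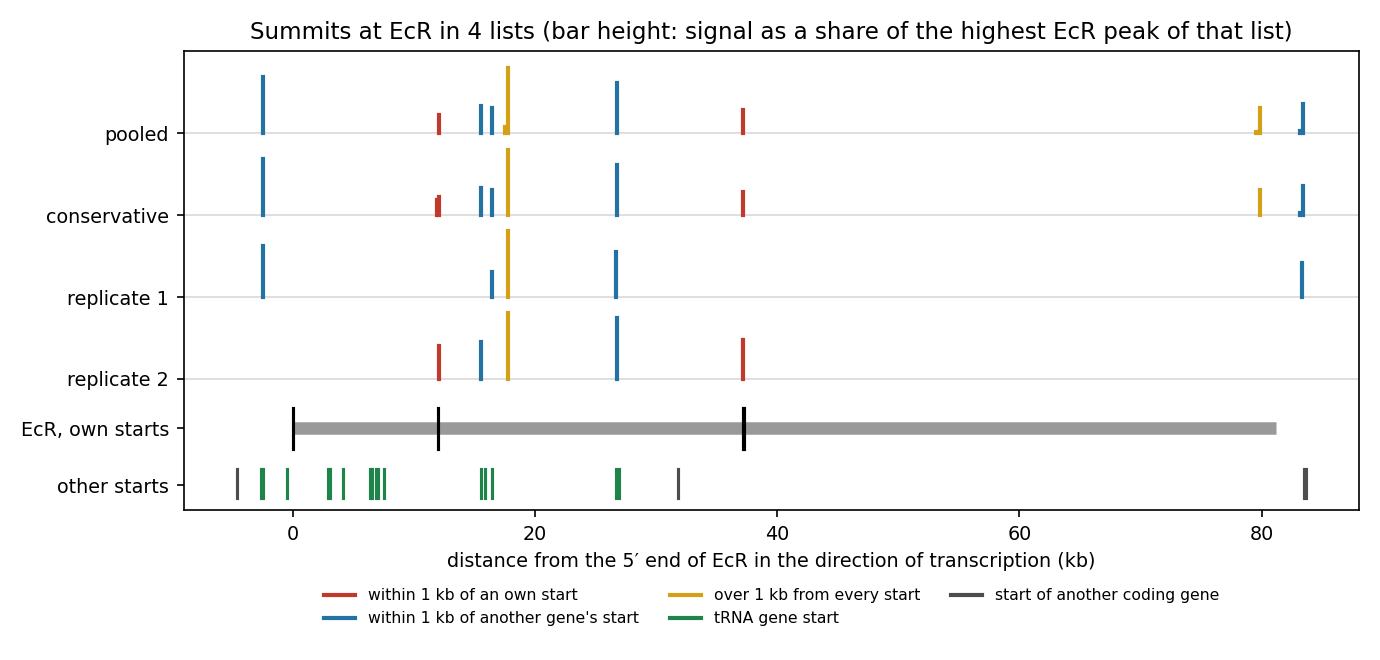
Summits at EcR in the 4 lists along the gene, with the distance from its 5′ end in kb on the x axis and each list on a row of its own; bar height is the signal as a share of the highest EcR peak of that list, and the lower rows mark the starts of EcR, of tRNA genes and of other coding genes. The highest bar of every list stands in the intron between starts 2 and 3, and no bar stands at the outermost start.

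At usp (FBgn0003964, chrX:2038798-2042311, minus strand) both pooled summits lay at its own 2 starts. The peak 150 bp upstream of start 2, of usp-RA, had a signal of 389.9 and ranked in the top 13.3% of the pooled list. It had 244.9 in replicate 1 and 136.3 in replicate 2, in the top 24.1% and 14.2% of those lists. The other peak, 99 bp upstream of start 1, of usp-RB, had a pooled signal of 98.0, with 63.6 in replicate 1 and 47.8 in replicate 2. Its summit was also 99 bp from the start of Actn, the gene of alpha-actinin, which runs the other way. A weaker peak that overlapped the one at start 2 was nearest the start of CG4313. It had 25.5 in the conservative list, 194 bp from that start, and 53.2 in replicate 1, 224 bp from it. usp was the only gene of the 10 with a peak at each of its starts in all 4 lists. It is also the shortest, at 3514 bp.

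Among the early genes, Eip78C and Eip75B had pooled summits at an own start, and Eip74EF and br had none. Eip78C (FBgn0004865, chr3L:21226609-21266503), which encodes a nuclear receptor, had 1 pooled summit, 118 bp upstream of start 3, which lies 13738 bp from start 1. This peak had a pooled signal of 103.6, with 57.4 in replicate 1 and 44.7 in replicate 2. Eip75B (FBgn0000568, chr3L:17950953-18064696, minus strand), a heme-binding nuclear receptor and an antagonist of Hr3, had 5 pooled summits in 3 regions. A pair of overlapping peaks of 61.0 and 20.7 stood at start 6, of Eip75B-RA, with 37.4 in replicate 1 and no peak in the replicate 2 list. The other 3 were intronic, with signals of 58.2, 13.6 and 69.7. The conservative list had 2 further intronic summits that the pooled list lacked, of 70.0 and 46.4, and that of 70.0, 9445 bp downstream of start 4, was also in replicate 2 with 34.8. No Eip75B region was in the lists of both replicates.

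Eip74EF (FBgn0000567, chr3L:17558672-17619325, minus strand) encodes ETS-domain factors. Its 3 intronic summits had signals of 91.0, 62.3 and 73.8, at least 4018 bp from any of its starts. Only that of 91.0 was in both replicate lists, with 54.1 in replicate 1 and 35.0 in replicate 2. The fourth summit in its window had a signal of 419.7 and lay 48 bp from the start of CycT, the cyclin of the elongation factor P-TEFb, 836 bp beyond the 3′ end of Eip74EF. It had 281.0 in replicate 1 and 140.9 in replicate 2.

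Broad (br, FBgn0283451, chrX:1575132-1664869), a family of zinc finger isoforms needed for metamorphosis, had none of its 9 starts within 1 kb of a summit in any list. Its 3 pooled summits were at other genes. Mur2B, nested in it, had 72.4, and this peak was in neither replicate list. dor, which encodes a protein of endosomal sorting and starts just past the 3′ end of br, had 310.2, with 211.2 in replicate 1 and 96.4 in replicate 2. CG3740 had 539.1, with 417.7 in replicate 1 and 117.6 in replicate 2, at 4559 bp beyond the end of br. In replicate 2 the summit of this peak was instead nearest the start of hfw, 109 bp away, and had TATCGA within 50 bp.

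Hr3 (FBgn0000448, chr2R:10203995-10237348, minus strand) is an orphan nuclear receptor that activates ftz-f1 and represses early genes. Its peak of 95.5 lay 194 bp upstream of start 3, of Hr3-RA, Hr3-RF and Hr3-RH. It had 63.0 in replicate 1 and did not pass in replicate 2, where its IDR was 0.0744. A pair of intronic peaks of 33.6 and 70.4 was in the pooled list alone. Hr4 (FBgn0264562, chrX:1941940-2007956), another nuclear receptor of the response, had 5 pooled summits. That at its first start, at 66 bp upstream, had 83.9 in the pooled list and 52.3 in replicate 1, and was in neither the conservative list nor the replicate 2 list. The intronic summit of 71.0 was in replicate 2 with 35.2 and not in replicate 1. The remaining 3 were at neighbours, with 56.3 at CG3857, 152.3 at PIG-K, a subunit of the GPI transamidase, and 76.2 at east. Only the PIG-K peak was in both replicate lists, with 108.1 in replicate 1 and 41.6 in replicate 2.

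The 4 lists gave unlike pictures of ftz-f1 (FBgn0001078, chr3L:18750607-18801309, minus strand), a nuclear receptor that makes tissues competent for the next pulse of ecdysone and a partner of Ftz in the early embryo. The pooled list held 1 summit in its window, of signal 320.4, at the start of Atg3, a gene of autophagy, 1959 bp beyond the 3′ end. The conservative list held a second, of signal 400.5, 244 bp upstream of the outermost ftz-f1 start, of ftz-f1-RB, at chr3L:18801395-18801720. It ranked 617 of 4474, in the top 13.8%. Both replicates had this peak, 245 bp upstream with 274.6 in replicate 1 and 247 bp upstream with 129.1 in replicate 2, in the top 19.5% and 16.6% of their lists. The region also holds the start of lncRNA:CR45939, 241 bp from the summit.

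No peak of the pooled thresholded or ranked list overlapped the ftz-f1 start peak. This was rare: 6 of the 4474 conservative peaks (0.134%) lacked an overlapping peak in the pooled ranked list, and of the 617 with a signal as high as that at ftz-f1, or higher, it was the only one. With the pooled and conservative lists joined, 7 of 10 genes had a summit at an own start. Replicate 1 alone had a further ftz-f1 summit, of 54.3, in an intron 5599 bp from the nearest own start.

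Eip93F (FBgn0264490, chr3R:21949114-22014539), a DNA-binding factor of late metamorphosis, had no summit inside the gene or at a start in any list. The only one in its window had a signal of 673.1, the highest at the 10 genes and in the top 2.67% of the pooled list. It lay 74 bp from the start of Idh3b, a subunit of isocitrate dehydrogenase, 4719 bp beyond the end of Eip93F. Replicate 1 had 467.2 there and replicate 2 200.7. This summit was close to the 5 kb limit, as were that of CG3740 at br (4559 bp) and that of east at Hr4 (4420 bp). Just outside were summits at moody 7996 bp from usp (signal 143.2), at Mitofilin 8891 bp from Eip93F (162.5) and at Ilk 9725 bp from Eip78C (293.0).

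**Figure D3:**
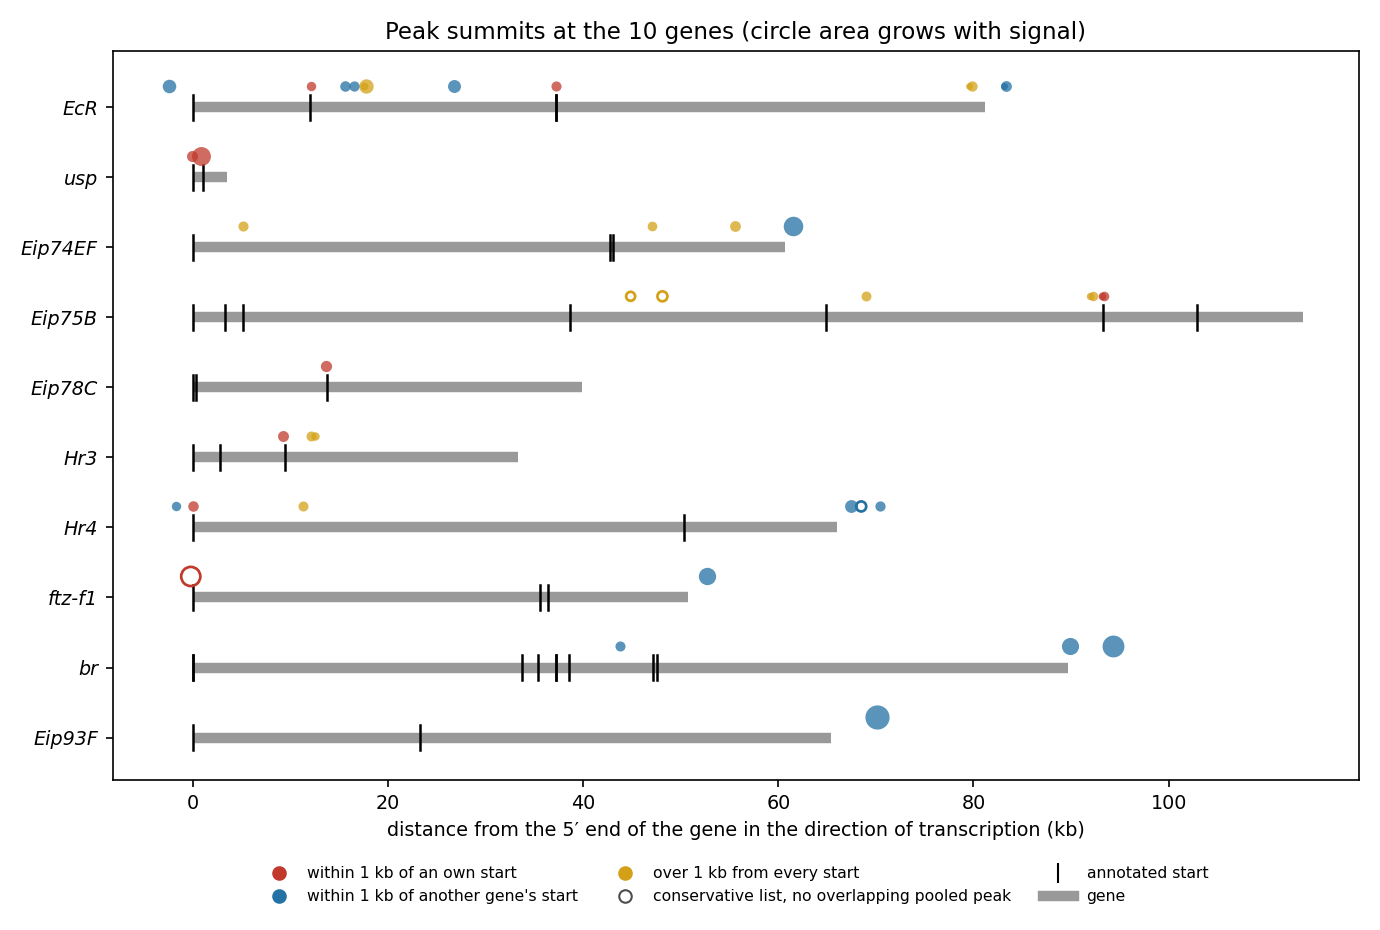
Summits at the 10 genes, each drawn to scale from its 5′ end in the direction of transcription (x axis in kb); filled circles are pooled summits, open circles conservative peaks with no overlapping pooled peak, black ticks the annotated starts, and circle area grows with signal. The large circles at Eip74EF, br and Eip93F stand beyond their 3′ ends at other genes' starts, and the open circle at the start of ftz-f1 has a signal of 400.5.

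Starts with a pooled summit were mostly internal, as were most of the annotated starts of these genes. Of 38 annotated starts of the 10 genes, 9 (23.7%, Wilson interval 13.0 to 39.2) had a pooled summit within 1 kb, beside 33.8% of all 19275 coding starts. The outermost start had one at usp and Hr4, 2 of the 6 genes with a summit at an own start in that list. Leaving out the short usp, this was 1 of 5 (20.0%, interval 3.62 to 62.4), beside 184 of 241 (76.3%) of all coding genes of 30 kb or more with a pooled summit at an own start. That background was not matched for the number of annotated starts, and where a gene has 1 start it is always the outermost. The 5 genes had 2 (Hr4) to 7 (Eip75B) starts. The other lists add the outermost start of ftz-f1, while the conservative and replicate 2 lists lack that of Hr4. Without usp their counts were 1 of 5 in the conservative list, 2 of 5 in replicate 1 (interval 11.8 to 76.9) and 1 of 3 in replicate 2 (6.15 to 79.2), and the interval of both replicates includes 76.3%.

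Signals differed in level between these kinds of place. The 9 summits at own starts had a median signal of 83.9 (20.7 to 389.9), the 11 at other coding genes 152.3 (7.30 to 673.1), the 4 at tRNA genes 119.6 (77.3 to 174.7) and the 13 over 1 kb from every start 69.7 (3.14 to 202.6). The ftz-f1 start peak, of 400.5 in the conservative list, is absent from the pooled list and so not among the 9. In the conservative list 2 of 12 own-start peaks (16.7%) exceeded that list's median. Summits of the whole pooled list had medians of 117.1 within 1 kb of a coding start, 90.1 where a tRNA start was nearest, and 71.2 over 1 kb from every start. Of the 37 peaks at the 10 genes 27.0% (Wilson interval 15.4 to 43.0) exceeded the list's median, beside 50.2% of the other 4862 and 42.9% of those at other coding genes of 30 kb or more, a share inside that interval. Without EcR it was 28.0%, and with overlapping peaks merged 32.3% (18.6 to 49.9), where only the peaks at the 10 genes were merged.

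**Figure D4:**
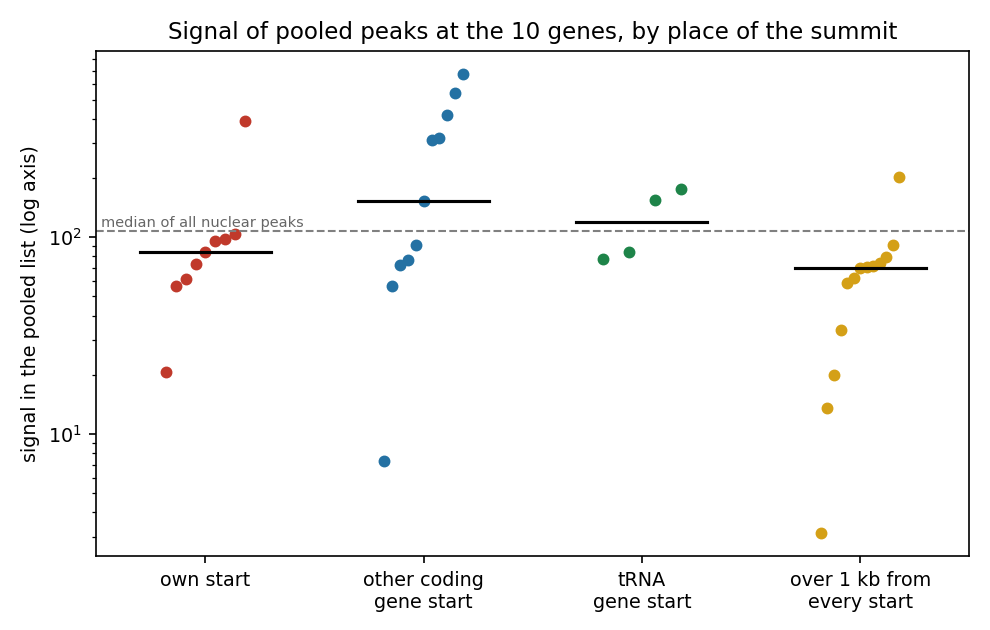
Signal in the pooled list (y axis, log scale) of the 37 peaks at the 10 genes by the place of their summit (x axis), with black bars for medians and a dashed line for the median of all nuclear peaks, 107.2. Of the own-start peaks, 1 of 9, at usp, stands above the dashed line, and the 5 highest peaks at other coding genes lie between 310.2 and 673.1.

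Summits away from starts made up 13 of 37 (35.1%, Wilson interval 21.8 to 51.2) at these genes, beside 7.40% of the other nuclear summits and 135 of 823 (16.4%) at other coding genes of 30 kb or more. Without EcR the count was 9 of 25 (36.0%), and with overlapping peaks merged 9 of 31 (29.0%, interval 16.1 to 46.6, which reaches 16.4%). The peaks at the other long genes were not merged. In the conservative list it was 21.2% (10.7 to 37.8), beside 6.55% of the other summits and 14.5% of those at other long genes. Replicate 1 had 23.1% (11.0 to 42.1), beside 4.84% and 10.6%, and replicate 2 22.2% (9.0 to 45.2), beside 4.69% and 9.56%. The 14.5% and 9.56% at other long genes lie inside the intervals of those lists. The 13 pooled summits lay in EcR, Eip74EF, Eip75B, Hr3 and Hr4, and 3 of them (23.1%) overlapped a peak of both replicate lists, near the share among all such summits, 82 of 373. The count above the list's median was 1 of 13 (7.69%, interval 1.37 to 33.3), beside 18.5% of all 373.

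Replicate overlap was counted over the same peaks. Of the 37, 13 (35.1%, Wilson interval 21.8 to 51.2) overlapped a peak of both replicate lists, beside 55.9% of the other nuclear peaks and 48.2% of those at other genes of 30 kb or more. Without EcR it was 10 of 25 (interval 23.4 to 59.3) and with overlapping peaks merged 12 of 31 (38.7%, 23.7 to 56.2), intervals that include both of those shares. Only the peaks at the 10 genes were merged, so the merged share is set beside shares of unmerged peaks. Of the 26 peaks of replicate 1, 14 (53.8%) overlapped a replicate 2 peak, beside 76.0% of all its nuclear peaks. Of the 18 peaks of replicate 2, 13 (72.2%) overlapped a replicate 1 peak, beside 82.9% of all. In the ranked lists, with no IDR limit, 36 of the 37 (97.3%) overlapped a peak of each replicate, as did 98.3% of the other nuclear peaks, so that nearly every peak does.

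The 6 letters TATCGA, on either strand within 50 bp of the summit, were at 6 of 37 summits (16.2%, Wilson interval 7.65 to 31.1), beside 32.3% of the other nuclear summits, 23.9% of those at other coding genes of 30 kb or more, which lies inside the interval, and 13.8% of windows of the same length at all coding starts. They were at 0 of the 9 pooled summits at own starts (interval to 29.9) and at 5 of the 11 at other coding genes (45.5%, interval 21.3 to 72.0), beside 34.8% of all summits nearest a coding start. Those 5 were at CycT, Atg3, dor, PIG-K and Ars2, and the sixth match was under the strongest EcR peak. The ftz-f1 start peak, not in the pooled list, also had a match, as its sequence above shows. In the lists of replicates 1 and 2 the share was 26.9% and 38.9%, beside 41.7% and 42.7% of all their nuclear summits.

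AGGTCA, the half-site that many nuclear receptors bind, was at 0 of 37 pooled summits (interval to 9.41), beside 1.65% of the others and 1.61% of coding-start windows. Single matches stood under the intronic Eip75B summit of the conservative list and the intronic ftz-f1 summit of replicate 1. GAGAGA, the repeat bound by GAGA factor, was at 5 of 37 (13.5%, interval 5.91 to 28.0). That interval includes the shares among the others, 6.75%, and at other coding genes of 30 kb or more, 11.3%. Coding-start windows had 4.07%. Over 1 kb from every start it was at 4 of 13 (30.8%, interval 12.7 to 57.6), beside 18.8% of all such summits. These were at Eip74EF, Eip75B and both Hr3 peaks, and the fifth match was at the Eip75B start peak of 61.0. TAATTA, a core that homeodomains bind, was at 1 of 37 (2.70%), the usp peak of 389.9, beside 5.76% of the others and 2.99% of coding-start windows. The 8-letter TATCGATA was at 4 of 37 (10.8%), beside 13.6% of the others and 4.48% of coding-start windows. CACGTG was at 0 of 37, beside 1.77% and 1.82%, and GGTCACAC at 1, the PIG-K summit, beside 4.03% and 4.67%. CAGGTA was at 3 of 37 (8.11%, interval 2.80 to 21.3), beside 1.97% of the others and 2.00% of coding-start windows. These were the EcR 3′ UTR peak of 79.0 and the summits at tRNA:Asn-GTT-1-3 in EcR and at east. The replicate 1 summit at east lacked it. GGTTCGA, in the inner promoter of tRNA genes, was at 3 of the 4 summits at EcR's tRNA genes, beside 25 of 75 (33.3%) of all summits nearest a tRNA start; it was added after the positions of these summits were seen. A match is a description of these letters, not a site.

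The rest of the pathway was counted in 4 lists. Of 14 other nuclear receptors, 9 had a pooled summit in the gene or within 5 kb and 4 at an own start, against the backgrounds of 57.1% and 35.9%. The highest at own starts were 180.1 at Hr96, 161.1 at ERR, 99.1 at Hr38 and 58.2 at Hr78. Those of Hr96 and ERR were closer to the starts of EMC6 and Atg18a. tll had no summit in any list, and svp had none in the pooled list, though the conservative list held a peak of 83.8 at 100 bp upstream of an svp start. Of 11 genes in the list of receptor cofactors, which also holds DopEcR, 9 had a summit and 6 at an own start. The highest was 576.8 at Hsp83, a chaperone, which was closer to CG14965. Next came 319.5 at trr, a histone methyltransferase recruited by EcR, which was closer to mRpL16, and 264.0 at Utx, a histone demethylase, and 124.1 at nej, the fly CBP. Smr, a corepressor, and rig had none.

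Of 18 genes of ecdysone synthesis, control and transport, 10 had a summit and 4 at an own start. These were ecd with 493.6, woc with 326.4, Npc1a with 191.9, which was closer to Prosalpha6, and Start1 with 76.7. nvd and spo, of the early steps of synthesis, had none. Of 26 other genes listed as responding to ecdysone, 12 had a summit and 5 at an own start. The highest were 445.8 at crol, 88.2 at E23, 84.7 at Eip63E and 74.8 at chinmo. ImpE1 had none in any list, and ImpE2 none in the pooled list. Own-start shares ran between 19.2% (Wilson interval 8.51 to 37.9) for the other responding genes and 54.5% (28.0 to 78.7) for the list of cofactors. All 8 intervals, of the window and of the own start in each list, include the background share.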

How the data were processed

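The deposited files were 8 peak lists on dm6, 4 thresholded and 4 ranked, of which 1 pair belongs to each replicate and 2 pairs to both together. The deposited lists give the authors' signal per peak, whose scale is not stated. The ranked lists deposited by the authors also give the -log10 of the global IDR. The aligner and the peak caller were not given in the sources used here. Depth is unknown.

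Summits were assigned to a gene within 5 kb and to a start within 1 kb, with coordinates counted from 1. Genes and starts came from Ensembl BDGP6.54, leaving out 5889 transposable elements. The motifs spelled out in the report were searched within 50 bp of each summit on both strands. Overlap meant at least 1 bp. Own starts took precedence over other starts. The counting code was checked on simulated peaks placed at known positions, which serve for nothing else here. With 1 group, no test between groups was possible and none was run. The 10 genes, the 4 pathway lists and the tRNA motif were chosen with earlier results of these data known. All 10 genes were named, with up to 4 genes per list of highest own-start signal and up to 2, in list order, without a summit. Python 3.11.15, pandas 2.3.3 and scipy 1.17.1 were used. Ranked-list columns on single IDR inputs were left out.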

Additional observations from a re-analysis of the deposited data

How the results depend on the processing

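For the main counts and shares, 51 alternative values stayed within 1.5 times the value or its interval, and 9 did not. The number of summits at the 10 genes, 37, was 18 to 26 in the list of a single replicate and 10 among pooled peaks above the median signal. Genes with a summit at an own start, 6, fell to 1 among those and to 2 with the outermost start only, and the share of summits at an own start, 24.3%, to 10% and 8.11%. That share was higher, within the limit, at 36.4% in the conservative list and 30.8% to 33.3% in single replicates. The share of peaks found in both replicates, 35.1%, was 97.3% in the ranked lists. The share of summits with TATCGA, 16.2%, was 26.9% to 38.9% in single replicates. The share of summits over 1 kb from every start, 35.1%, was 21.2% in the conservative list and 22.2% to 23.1% in single replicates. Windows of 2 and 10 kb, merging of overlapping peaks and, chosen after seeing the data, joining the pooled and conservative lists kept the 3 counts and the own-start share within that limit. Leaving out EcR, also chosen later, kept the number of summits and the 5 shares within it. Counts at single genes moved beyond it in 15 alternatives and stayed within it in 25. The causes were not tested. No paired analysis was possible because there is 1 group.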
